A study of Rattus norvegicus with 3 samples.

Results

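Nuclear genes for the subunits of oxidative phosphorylation were examined in the common carotid artery of the rat before and after balloon injury. A gene was included when its RefSeq symbol began with Ndufa, Ndufb, Ndufc, Ndufs, Ndufv, Sdh, Uqcr, Cox4, Cox5, Cox6, Cox7, Cox8 or Atp5, so that assembly factors of complexes I and II (Ndufaf and Sdhaf), the inhibitory factor Atp5if1 and 1 pseudogene symbol (Cox6c-ps1) were also included. The rule found 81 of the 13833 named genes measured on both the day 21 and the uninjured array, and 49 of the 7796 named genes with a probe on all 3 arrays. A further 35 included genes were on the day 7 array only through probes of its own design, and all 35 were well above background there; 3 of these (Cox6b1, Ndufa10 and Ndufaf8) were found on no other array.

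The arrays held total RNA from the whole artery of male Wistar rats in 3 groups: uninjured, 7 days after balloon injury and 21 days after balloon injury. No age is stated for the rats. Balloon injury removes the inner endothelial layer and damages the muscular media beneath it. With 1 array (Cy3, 1 colour) in each group there are no replicates and no p-values, and each value below compares single arrays. Replicate experiments in other rats are named in the design, and their arrays were not analysed here.

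Oxidative phosphorylation passes electrons from NADH (complex I) or succinate (complex II) through complex III and cytochrome c to oxygen at complex IV, and the proton gradient built on the way drives the ATP synthase, complex V. Most subunits are encoded in the nucleus, and their genes are commonly described as regulated together by the factors NRF1 and GABP and the PGC-1 coactivators. Smooth muscle of the artery wall uses both this pathway and glycolysis, and proliferating and inflammatory cells are known for a larger share of glycolysis.

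Levels below are probe signals in multiples of the 75th percentile of the array, and can be compared between arrays but not between genes. For comparisons with day 7 that percentile was taken over the 10583 probes on all 3 arrays, and for day 21 against uninjured over the 40989 probes of their common design. Log2 ratios of levels are given with ± the SD that replicate spots imply, which is technical only. A gene was counted as higher or lower when it differed by at least 2-fold and was well above background on both arrays. The day 7 array was of a different design, scan and software release from the other arrays, so time after injury and batch cannot be told apart in comparisons with it. The uninjured and day 21 arrays shared a design and a scan. Between 69.9% and 79.2% of the shared probes were well above background, and no spot was saturated.

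Marker genes of several cell types also differed between the arrays. For the counts below, 16.3% of all genes were lower and 16.1% higher at day 7 against uninjured. At day 21 against uninjured these shares were 13.7% and 9.11%, and 20% of all genes were lower at day 21 against day 7. Contractile smooth muscle genes, Cnn1 and Tagln among them, were lower for 5 of 6 at day 7 against uninjured (median log2 ratio -2.57). They were lower for 10 of 10 at day 21 against uninjured (median -2.48). Lmod1 of this list was at 0.30 ± 0.29 at day 7. The summed level of that list was 56.3 at day 7 against 407 in the uninjured artery over 6 genes. This sum follows its brightest probes, Tpm2 (195 uninjured) and Tagln (151 uninjured), more than the list. Macrophage genes had medians of 3.57 (7 genes) and 5.31 (10 genes). Of the striated muscle genes, 1 of 4 was lower at day 7 (median -0.47) and 4 of 9 at day 21 (median -0.95), and Myh6 was at least 15.9-fold lower at day 7 and at least 24.1-fold lower at day 21. The brown fat gene Ucp1 was not well above background on any array, and the other genes of that list differed in direction at day 7: Cidea was at 0.855 at day 7 against 3.55 uninjured (log2 ratio -2.05 ± 0.11), Otop1 at 0.440 against 0.160 (1.46 ± 0.25), and Zic1 was at least 1.46-fold higher. Schwann cell genes were higher for 4 of 4 at day 7 against uninjured (median 3.77), and lower for 3 of 3 at day 21 against day 7 (median -5.02). Endothelial genes were higher for 4 of 4 at day 7 (median 2.22) and 4 of 5 at day 21 (median 2.46), and adipocyte genes for 2 of 2 at day 7 (median 1.71) and 3 of 7 at day 21 (median 0.43), against uninjured. Fibroblast genes went both ways, with 1 higher and 2 lower of 6 at day 7 and 2 higher and 2 lower of 8 at day 21. In such bulk RNA fewer cells of a type and less RNA per cell cannot be told apart, and the part of cell content in the results below was not tested.

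The comparison of day 7 with uninjured asked what the early injured wall had done with these genes. Most subunit genes were lower at day 7. The median log2 ratio over the 46 genes well above background on both arrays was -1.22, a 2.33-fold lower level, against -0.01 over all 5249 genes. Of the 46 genes, 27 (58.7%) were lower by 2-fold or more and 0 were higher by as much, where 16.3% of all genes were lower and 16.1% higher. The other 3 measured genes were Cox7c and Ndufaf1, each well above background on 1 array, and Cox6c-ps1, on neither.

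**Figure D1:**
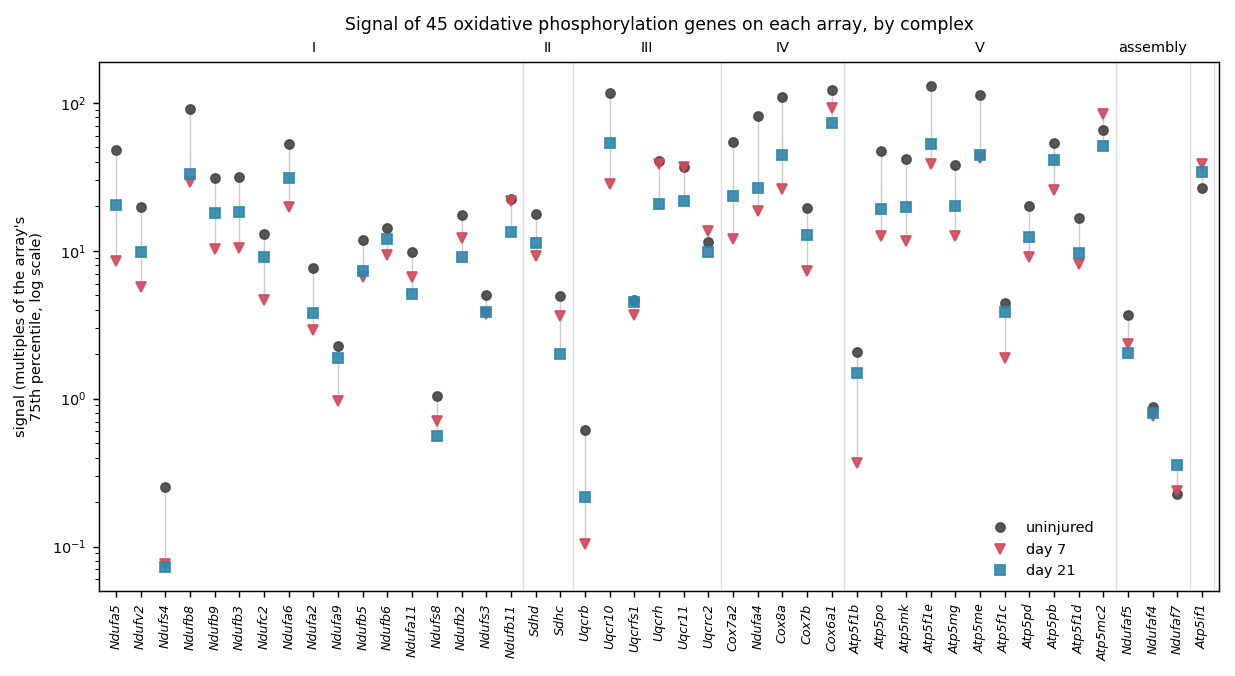
Signal of 45 of the 46 genes well above background on all 3 arrays, each point 1 array (uninjured circle, day 7 triangle, day 21 square), in multiples of the 75th percentile of the array on a log axis, grouped by complex and joined by a grey line within a gene. The uninjured point is the highest for 40 of the genes drawn, and the day 7 point lies lowest with day 21 in between for 31.

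Complex I had a median of -1.40 at day 7 against uninjured, and 11 of its 18 measured subunit genes were lower. Ndufa5, an accessory subunit of the matrix arm, had a level of 8.55 at day 7 against 47.9 in the uninjured artery (-2.49 ± 0.13, 5.60-fold lower). Ndufv2, a core iron-sulphur subunit, was at 5.67 against 19.6 (-1.79 ± 0.09). The differences were smaller for the core subunit genes Ndufs3, at 3.75 at day 7 against 5.06 (-0.43 ± 0.09), and Ndufs8 (-0.56 ± 0.14). Over the 4 core subunit genes measured the median was -1.18 and over the 14 accessory subunit genes -1.40. Ndufs4, an accessory subunit added late in assembly, was at -1.71, but with a spot SD of 0.98 at its low level. The membrane-arm genes Ndufb8, Ndufb9 and Ndufb3 were close together, at -1.63 ± 0.08, -1.61 ± 0.08 and -1.59 ± 0.08. Ndufb11, of the same arm, had a level of 21.7 at day 7 against 22.4 uninjured, a difference below its spot SD (-0.05 ± 0.13), and was the highest of complex I.

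Complex II was represented by its membrane anchors. Sdhd was at 9.27 at day 7 against 17.6 uninjured (-0.93 ± 0.09), and Sdhc at 3.62 against 4.98 (-0.46 ± 0.13), so neither reached 2-fold.

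Complex III was split at day 7, with a median of -0.20 over 6 genes. The small subunit gene Uqcr10 had a level of 28.2 at day 7 against 117 uninjured (-2.05 ± 0.13). Uqcrb, a small subunit near the quinone site, was at 0.103 against 0.617 (-2.58 ± 0.28), the lowest ratio of any included gene, but at a dim probe, and its log2 difference was 0.45 in the authors' deposited table. The other 4 genes differed little: Uqcrfs1, the Rieske iron-sulphur protein, was at -0.34 ± 0.13, the hinge protein gene Uqcrh at -0.06 ± 0.13, Uqcr11 at 0.01 ± 0.13 and the core protein gene Uqcrc2 at 0.25 ± 0.14. The median of complex III was 0.14 with cyclic loess and -1.42 with the percentile taken over all probes of each design.

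Complex IV had the lowest median at day 7, -2.08 over 5 genes, of which 4 were lower. Cox7a2, a small nuclear subunit, had a level of 12.0 at day 7 against 54.5 uninjured (-2.19 ± 0.13, 4.55-fold lower). Ndufa4, named for complex I but described as a subunit of complex IV, was at 18.7 against 81.4 (-2.13 ± 0.13), and Cox8a at 26.0 against 110 (-2.08 ± 0.08). Cox7b was at 7.31 against 19.5 (-1.41 ± 0.09). Cox6a1, the isoform found in most tissues, was nearer to the uninjured level, at 92.3 against 122 (-0.40 ± 0.13). Cox7c was not well above background at day 7 and at least 3.71-fold lower there.

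In complex V 10 of 11 genes were lower at day 7 and the median was -1.41. Atp5f1b, the catalytic beta subunit, was at 0.365 at day 7 against 2.07 uninjured (-2.50 ± 0.12, 5.67-fold lower). The other subunits of the catalytic head and central stalk were lower by less: the epsilon subunit Atp5f1e was at -1.73 ± 0.13, the gamma subunit Atp5f1c at -1.22 ± 0.12 and the delta subunit Atp5f1d at -1.03 ± 0.13. In the peripheral stalk Atp5po (OSCP) was at -1.91 ± 0.13, Atp5pd at -1.14 ± 0.13 and Atp5pb at -1.07 ± 0.08. Of the membrane part, Atp5mk was at -1.85 ± 0.13, Atp5mg at -1.58 ± 0.13 and Atp5me at -1.41 ± 0.13. Atp5mc2, which encodes a proton-carrying c-ring subunit, was the exception, at 84.3 at day 7 against 65.4 uninjured (0.37 ± 0.13).

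Of the genes of the rule that are not subunits, 4 were well above background on both arrays, and none reached 2-fold at day 7. Atp5if1, the inhibitor that stops the ATP synthase from running backwards, had a level of 38.6 at day 7 against 26.8 uninjured (0.53 ± 0.13), the highest ratio of the 46, although it was at -0.69 when the percentile was taken over all probes of an array's design. The assembly factors Ndufaf5, Ndufaf4 and Ndufaf7 were at -0.65 ± 0.09, -0.19 ± 0.15 and 0.08 ± 0.34, and Ndufaf1 was at least 2.74-fold higher. The value of Ndufaf4 is that of the brightest of its 3 probes, which ran from -0.19 to 1.93.

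Signal level moved with the ratios over all genes at day 7, as classes chosen after the values were seen show. Among all genes with a mean level of 8 or above the median was -0.35, with 27.4% lower, against 0.13 with 12.2% lower among genes below 1. The included genes had medians of -1.41 (19 of 31 lower) and -1.13 (3 of 6 lower) in the same classes, and -1.22 (5 of 9 lower) between them, where all genes had -0.18. The part of signal level in the result was not tested.

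The comparison of day 21 with uninjured asked how the later artery stood. Most of the genes were below the uninjured level. The median log2 ratio was -0.54 (1.45-fold lower) over 76 genes well above background on both arrays, against -0.20 over all 9420 genes. Of the 76 genes, 14 (18.4%) were lower by 2-fold or more and 0 were higher by as much, where 13.7% of all genes were lower and 9.11% higher, so the share lower was near that of all genes. On the shared probes used for day 7, 15 of 47 of the genes were lower (31.9%), where 17.2% of all genes were. The median over these 47 genes was -0.79, against -1.22 over 46 genes at day 7. With median scaling there were 2 lower and 2 higher (2.63% each, where 5.19% of all genes were lower and 17.5% higher). The median was then -0.060, and with normexp background correction it was 0.060. The median of these genes minus that of all genes was -0.34 as reported, a difference that median scaling cannot change. It was -0.22 with quantile normalization, -0.23 with cyclic loess and 0.13 with normexp.

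**Figure D2:**
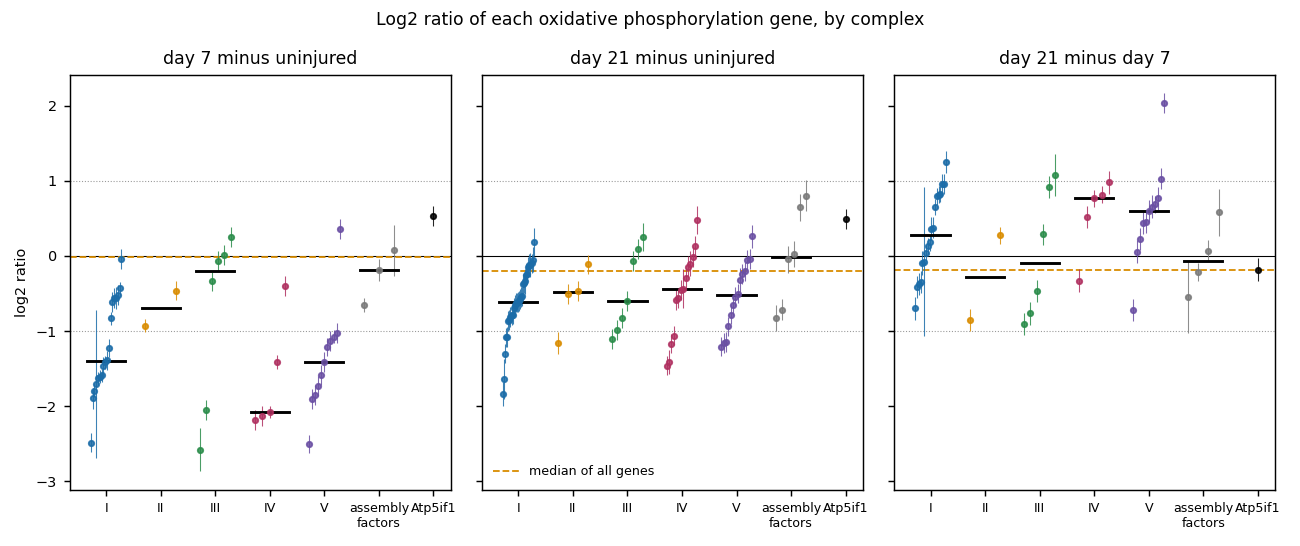
Log2 ratio of each gene well above background on both arrays (points, with the replicate-spot SD as bars), by complex, for day 7 minus uninjured, day 21 minus uninjured and day 21 minus day 7; black bars are medians, the dashed line is the median of all genes and dotted lines mark 2-fold. The medians of complexes I, IV and V lie below -1 at day 7, with single genes above it. Every complex median lies between -0.61 and -0.44 at day 21, over sets with genes not measured at day 7.

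The medians of the 5 complexes were close together at day 21: -0.61 for complex I (30 genes), -0.49 for complex II (4), -0.60 for complex III (7), -0.44 for complex IV (14) and -0.52 for complex V (14). Single genes within a complex spread more widely than these medians. The sets also hold genes not measured at day 7, so the medians cannot be set against those of day 7. The 5 complex IV genes counted at day 7 were at -1.46 (Ndufa4), -1.17 (Cox8a), -1.06 (Cox7a2), -0.59 (Cox6a1) and -0.45 (Cox7b) at day 21. The 6 assembly factor genes measured had a median of -0.01, from Sdhaf2 at -0.83 ± 0.17 to Ndufaf7 at 0.80 ± 0.21, and Sdhaf1 was at 0.65 ± 0.18. Ndufaf1 was well above background at day 21 only and at least 2.09-fold higher there.

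In complex I the genes lower at day 21 included Ndufs4, at 0.207 against 0.644 uninjured (-1.64 ± 0.27). Ndufb8 was at 94.6 against 233 (-1.30 ± 0.13), Ndufa5 at 58.0 against 123 (-1.08 ± 0.13) and Ndufs7, which carries the last iron-sulphur cluster before the quinone, at 102 against 215 (-1.08 ± 0.13). Of the other core subunit genes, 4 differed by less: Ndufv1, which binds NADH, was at 3.56 against 3.69 (-0.05 ± 0.17), Ndufs1 at 1.76 against 1.55 (0.19 ± 0.18), Ndufs3 at -0.25 ± 0.13 and Ndufs8 at -0.33 ± 0.17 (read at another, brighter probe than at day 7). The core subunit gene Ndufv2 was at 27.9 against 50.4 (-0.85 ± 0.13), below the median of the complex. The median was -0.33 over the 7 core and -0.62 over the 23 accessory subunit genes.

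In complex II the catalytic flavoprotein Sdha was at 32.6 at day 21 against 35.3 uninjured (-0.11 ± 0.13) and the iron-sulphur subunit Sdhb at -0.47 ± 0.14. The anchor Sdhc was lower, at 5.71 against 12.8 (-1.16 ± 0.14), and Sdhd was at -0.50 ± 0.13. In complex III Uqcrb was at 64.6 against 139 (-1.11 ± 0.13), read at a far brighter probe than the shared one used with day 7, with its 3 probes between -1.36 and -0.68, and Uqcr10 at 151 against 299 (-0.99 ± 0.13). The larger subunits with redox or core roles did not share this: Uqcrc1 was at 0.25 ± 0.19, Uqcrfs1 at 0.10 ± 0.14 and Uqcrc2 at -0.07 ± 0.13. Uqcrq was not well above background on either array.

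Complex IV held pairs of isoforms at day 21. Cox4i2, the isoform best known from lung and low oxygen, was at 2.08 at day 21 against 5.52 uninjured (-1.41 ± 0.16, 2.66-fold lower), while Cox4i1, the isoform of most tissues, was at 23.6 against 21.4 (0.14 ± 0.13). The muscle isoform Cox6a2 was at 3.36 against 3.60 (-0.10 ± 0.17; its other probe gave -0.90), and Cox6a1 at 209 against 313 (-0.59 ± 0.13). Cox8a was at 126 against 282 (-1.17 ± 0.13), and its muscle and testis isoforms Cox8b and Cox8c were not well above background on either array. Cox6b2, known as a testis isoform, was the highest of the complex, at 1.82 against 1.31 (0.48 ± 0.19). Ndufa4 was the lowest, at 76.0 against 209 (-1.46 ± 0.13), and Cox7a2 was at 67.1 against 140 (-1.06 ± 0.13). The larger nuclear subunits Cox5a and Cox5b were at -0.14 ± 0.14 and -0.29 ± 0.13, and Cox7b, Cox7c and the supercomplex factor Cox7a2l at -0.45 ± 0.13, -0.44 ± 0.26 and -0.01 ± 0.13.

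In complex V the lowest genes at day 21 were Atp5me, at 126 against 290 uninjured (-1.21 ± 0.13), Atp5po, at 54.5 against 122 (-1.16 ± 0.13), and Atp5f1e, at 150 against 332 (-1.14 ± 0.13). The alpha, beta and gamma subunits were nearer to the uninjured level than the delta and epsilon subunits. Atp5f1a, the alpha subunit, was at 5.79 against 4.82 (0.26 ± 0.15), Atp5f1c at 11 against 11.3 (-0.04 ± 0.14) and Atp5f1b at 4.25 against 5.31 (-0.32 ± 0.16), while Atp5f1d was at -0.65 ± 0.13. The c-ring genes Atp5mc1 and Atp5mc2 were at -0.05 ± 0.13 and -0.21 ± 0.13. Atp5if1 was at 96.8 against 68.7 (0.50 ± 0.13), above uninjured under every alternative with a value for it, from 0.35 to 0.99.

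Day 21 was set against day 7 to follow the genes within the injured artery, across the 2 array designs. The included genes had a median log2 ratio of 0.36 (1.29-fold higher) over 47 genes, against -0.19 over all 5641 genes. At least 2-fold higher at day 21 were 4 of the 47 (10.7% of all genes were) and at least 2-fold lower 0 (20% of all genes were). The 4 were Atp5f1b, at 1.5 at day 21 against 0.365 at day 7 (2.03 ± 0.13, 4.10-fold higher), Ndufa5, at 20.4 against 8.55 (1.26 ± 0.15), Uqcrb (1.08 ± 0.28, and -0.96 in the authors' deposited table) and Atp5f1c, at 3.87 against 1.90 (1.03 ± 0.13). Complexes IV and V had medians of 0.77 and 0.60, complex I 0.27, complex III -0.09 and complex II -0.29. The lowest were Uqcrh (-0.91 ± 0.15), Sdhc (-0.85 ± 0.15), Uqcr11 (-0.76 ± 0.15), Atp5mc2 (-0.72 ± 0.15) and Ndufb11 (-0.70 ± 0.15). Cox7c was at least 2.48-fold higher at day 21.

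On the common scale of the 3 arrays the levels of Ndufa5 were 47.9 in the uninjured artery, 8.55 at day 7 and 20.4 at day 21, those of Cox8a 110, 26.0 and 44.2, and those of Atp5po 47.5, 12.7 and 19.2. In these genes uninjured was the highest and day 7 the lowest, an order held by 31 of the 46 genes on all 3 arrays. In 10 further genes, among them Sdhc, day 21 was the lowest and uninjured the highest. Day 21 was the lowest and day 7 the highest for Atp5mc2, Uqcrc2 and Uqcr11, and uninjured was the lowest for Atp5if1 and Ndufaf7. Under other scalings and background corrections between 28 and 42 genes had the first of these orders. The comparisons share arrays, so these orders and the ratios above are the same 3 values seen in different ways.

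**Figure D3:**
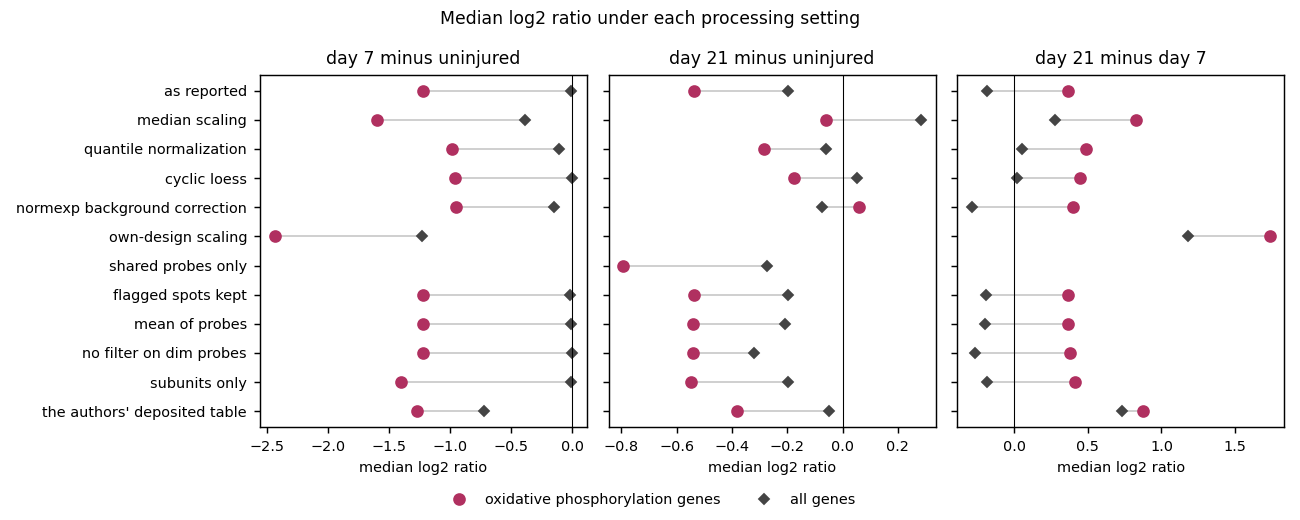
Median log2 ratio of the included genes (circles) and of all genes (diamonds) under each processing setting (rows) for the 3 comparisons. The circles for day 7 minus uninjured lie between -2.44 and -0.95, and those for day 21 minus uninjured between -0.79 and 0.060.

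Other mitochondrial gene lists had medians below 0 at day 7 against uninjured, but their counts of lower genes, except that of carriers and import, were near or under the 16.3% of all genes. Of 12 tricarboxylic acid cycle genes 2 were lower and 0 higher (median -0.48), with Suclg1, a succinate-CoA ligase subunit, at 4.52 at day 7 against 17.3 (-1.94 ± 0.13). Of 17 fatty acid oxidation genes 2 were lower (median -0.50), Hadh among them (-1.73 ± 0.13). Of 11 genes of mitochondrial carriers and import 4 were lower (median -0.66), led by the import chaperone Timm8b (-1.88 ± 0.12). Timm44 of this list was well above background at day 7 only and at least 3.98-fold higher there. Assembly factors outside the rule had 0 of 10 genes past 2-fold (median -0.38). At day 21 these 4 lists had medians between -0.27 and -0.25, close to the -0.20 of all genes.

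The regulators of mitochondrial biogenesis were mostly dim on the probes shared with day 7. At day 7, 2 of 9 were lower and 1 higher, where 16.3% of all genes were lower and 16.1% higher: Esrra, the oestrogen-related receptor that works with PGC-1, was at 0.410 against 1.65 uninjured (-2.01 ± 0.12), and Tfb2m, a mitochondrial transcription factor, at -1.34 ± 0.15, while Gabpb1, a GABP subunit, was at 1.13 ± 0.62. A further 3 regulators were well above background at day 7 and not in the uninjured artery: the related receptor gene Esrrg was at least 2.85-fold higher, Gabpa, the DNA-binding GABP subunit, at least 1.83-fold and Tfb1m at least 1.78-fold. Esrra was at 1.51 at day 21 against 0.410 at day 7 (1.88 ± 0.13). Between day 21 and uninjured, on the same design, Esrra was at 0.02 ± 0.16. In that comparison 0 of 14 regulators were higher and 0 lower (median 0.02), where 9.11% of all genes were higher and 13.7% lower. Ppargc1a, which encodes PGC-1 alpha, was not well above background on any array. Glycolysis genes had a median of 0.14 at day 7 over 8 genes, 1 higher and 0 lower, where 16.1% of all genes were higher and 16.3% lower. At day 21 their median was 0.69 over 16 genes, 6 higher and 2 lower, where 9.11% of all genes were higher and 13.7% lower. Lactate dehydrogenase A (Ldha) was at 9.07 at day 21 against 3.62 uninjured (1.32 ± 0.05). The 2 lower genes were Ldhb (-1.13 ± 0.13) and Pfkm (-1.13 ± 0.14).

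Promoters are shown for the lowest gene of complexes I, IV and V at day 7 and for the highest of the 46 genes. Uqcrb of complex III, the lowest of the 46 genes, is not among those shown. The sequences are from RefSeq (GRCr8) and run from 250 bases before to 50 bases after the start of the gene. Capitals mark matches on either strand to the NRF1 motif (10 bases with 1 open position), the ETS motif of GABP (CCGGAAG) or YY1 (AAGATGGCG), which do not overlap here. Ndufa5 is at chr4:53971186-53971485 on the minus strand, Cox7a2 at chr8:89601100-89601399 on the minus strand, Atp5f1b at chr7:1099808-1100107 on the plus strand and Atp5if1 at chr5:150026628-150026927 on the minus strand.
Ndufa5: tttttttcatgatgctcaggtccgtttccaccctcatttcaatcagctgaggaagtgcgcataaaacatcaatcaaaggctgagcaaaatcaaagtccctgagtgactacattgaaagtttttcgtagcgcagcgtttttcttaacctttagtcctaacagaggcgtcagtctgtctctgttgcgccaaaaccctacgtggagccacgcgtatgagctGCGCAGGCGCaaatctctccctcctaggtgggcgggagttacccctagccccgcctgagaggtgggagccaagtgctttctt
Cox7a2: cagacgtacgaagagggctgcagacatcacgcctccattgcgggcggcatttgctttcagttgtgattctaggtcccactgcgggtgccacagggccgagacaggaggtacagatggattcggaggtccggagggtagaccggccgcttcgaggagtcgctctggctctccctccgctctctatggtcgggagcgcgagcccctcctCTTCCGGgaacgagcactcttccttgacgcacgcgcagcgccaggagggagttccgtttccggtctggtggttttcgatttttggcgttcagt
Atp5f1b: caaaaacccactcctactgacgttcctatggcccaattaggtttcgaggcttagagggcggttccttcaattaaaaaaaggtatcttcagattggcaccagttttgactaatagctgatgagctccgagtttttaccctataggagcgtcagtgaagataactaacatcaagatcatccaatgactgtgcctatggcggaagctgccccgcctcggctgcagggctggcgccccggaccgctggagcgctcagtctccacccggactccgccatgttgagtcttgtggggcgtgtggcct
Atp5if1: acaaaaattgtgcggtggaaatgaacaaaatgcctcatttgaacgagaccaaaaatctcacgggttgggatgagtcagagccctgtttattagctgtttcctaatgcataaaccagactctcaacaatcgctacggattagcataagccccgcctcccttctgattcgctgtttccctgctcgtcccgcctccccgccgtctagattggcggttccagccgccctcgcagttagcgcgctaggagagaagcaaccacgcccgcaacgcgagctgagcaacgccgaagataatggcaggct

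The Ndufa5 promoter held 1 NRF1 match, which began 32 bases before the start, and the Cox7a2 promoter 1 ETS match, which began 43 bases before it. Atp5f1b, among the lowest, and Atp5if1, the highest, held none of the 3 motifs in this window. Of the 81 genes, 71 had a promoter in the table. NRF1 letters were found in 14 of them (19.7%), ETS letters in 23 (32.4%) and YY1 letters in 8 (11.3%), against 4.25%, 8.75% and 1.73% of all 33469 promoters and 7.52%, 13.6% and 2.62% of promoters of the genes on the older design. The SP1 motif (GGGCGG) was found in 45.1% and the TATA box (TATAAA) in 7.04%, against 33.1% and 14.2% of all promoters and 50.4% and 11.6% of promoters of the genes on the older design, so that SP1 letters were more frequent than in all promoters but less frequent than in those of array genes.

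The median log2 ratio at day 7 was -0.93 over the 8 genes with an NRF1 match and -1.31 over the 32 without. It was -1.41 over the 11 genes with an ETS match and -1.07 over the 29 without, and -1.42 over the 5 genes with a YY1 match and -1.03 over the 35 without. These medians rest on few genes and were not tested. A match of letters is a description and not evidence of binding.

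**Figure D4:**
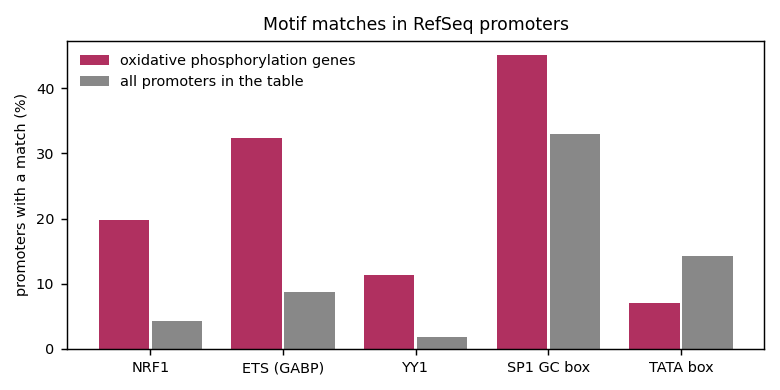
Share of promoters with at least 1 match on either strand to each motif (bars start at 0), for the 71 included genes with a promoter (red) and all 33469 promoters in the table (grey). NRF1, ETS and YY1 letters stand at 19.7%, 32.4% and 11.3%, above 4.25%, 8.75% and 1.73% of all promoters.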

How the data were processed

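Total RNA of whole arteries was hybridised to Agilent arrays, per the labels' protocols. Per the file headers, the deposited spot intensity comes from Feature Extraction 10.7.3.1 (uninjured, day 21) or 11.0.1.1 (day 7); the processed signal is background-subtracted within each array. In the authors' deposited table, 9260 probes have log2 values whose medians were 7.64 (uninjured), 7.62 (day 7) and 7.64 (day 21). Its normalization is not stated, its scale is log2, and its direction is that of the scanner signals while its centring stays unknown. It was used on the 5294 rows with a probe on all 3 arrays.

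Controls and outlier-flagged features (0.242% uninjured, 1.46% day 7, 0.274% day 21) were removed, spots of a probe averaged on the log2 scale, and the 75th percentile subtracted. Accessions without version were matched to a RefSeq table of GRCr8 for names. A gene was read at its probe with the highest mean level over the arrays compared; of the included genes 10 had several probes at day 21 against uninjured, 2 of them with probes of opposite sign, and 1, Ndufaf4, in the other comparisons. A probe was well above background when most of its spots were. Where a single array measured a gene, a bound is given: its bright level over the higher of the lowest level well above background and its own on the dim array. Spot SDs were read from probes with at least 3 spots. Median, quantile and cyclic loess scaling and normexp (offset 50, on median signals because no mean signal column exists) were alternatives, with limma 3.58.1, R 4.3.3 and Python 3.11.15. The calculation was tested on simulated data. The genes, lists and alternatives were chosen with earlier results of these data known. Genes named are the 5 highest and lowest per comparison and the extremes of each complex, catalytic and redox subunits, isoform pairs, genes with a bound and up to 4 genes of each list in the direction of its median. Gabpb1, Esrrg, Gabpa, Tfb1m, Cnn1, Tagln, Lmod1, Tpm2, Ldhb, Pfkm, Ucp1, Cidea, Otop1 and Zic1 and a few subunits beyond the rule were named after their values were seen. The values of 1 gene are not reported here, and it was not drawn among the levels; it stays in the counts and medians.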

Additional observations from a re-analysis of the deposited data

How the results depend on the processing

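With 1 array per group the spread between animals is unknown, and signal over background limits the dim genes (Ndufs4, Cox7c, Ndufaf1). No paired analysis was possible because each group had 1 array.

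For day 7 against uninjured the median of -1.22 was -1.60 with median scaling, -0.98 with quantile normalization, -0.96 with cyclic loess, -0.95 with normexp, -2.44 with own-design scaling (the percentile over all probes of each design) and -1.40 over subunits only. The 27 lower genes became 43 with own-design scaling (where 59.4% of all genes were lower) and otherwise stayed between 21 and 30, with 25 of 41 in the authors' deposited table (61.0%, where 40.5% of all genes were lower), and 1 gene was higher without the filter on dim probes. The median of these genes minus that of all genes was -1.21 as reported and -0.54 in the authors' deposited table. Of the 27, 17 stayed at least 2-fold lower under every alternative that gave a value, and 26 stayed below 0. The exception was Uqcrb, at 0.45 in the authors' deposited table, where it was at -0.96 between day 21 and day 7.

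For day 21 against uninjured the median of -0.54 was -0.060 with median scaling, -0.28 with quantile normalization, -0.18 with cyclic loess, 0.060 with normexp, -0.79 on shared probes and -0.38 in the authors' deposited table. The 14 lower genes (18.4%, against 13.7% of all genes) became 2 with median scaling (2.63%, against 5.19% of all genes). They became 5 with quantile normalization (6.58% against 8.35%), 4 with cyclic loess (5.26% against 6.49%) and 1 with normexp (1.32% against 2.82%). In the authors' deposited table they were 2 of 42 (4.76% against 9.34%). Under these alternatives the share lower was under that of all genes, while on shared probes it was above it (31.9% against 17.2%). Median scaling gave 2 higher genes and no filter on dim probes 1.

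For day 21 against day 7 the median of 0.36 was 0.83 with median scaling, 1.73 with own-design scaling and 0.87 in the authors' deposited table. The 4 higher genes (8.51%, against 10.7% of all genes) became 19 with median scaling (40.4% against 21.5%) and 8 with normexp (17.0% against 7.66%). They became 7 with quantile normalization (14.9% against 16.8%) and 7 with cyclic loess (14.9% against 15.5%), both near the share of all genes. With own-design scaling they were 39 (where 57.6% of all genes were higher). In the authors' deposited table they were 18 of 41 (43.9%, where 39.6% of all genes were higher, with medians 0.14 apart). Normexp gave 1 lower gene. The cause of these shifts was not tested.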
